A study of Mus musculus with 4 samples.

Results

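Potassium channel genes were examined here as 1 gene group, the protein-coding mouse genes whose symbol starts with Kcn. The rule used names alone, and it found 94 members among the 21951 protein-coding genes of the annotation (GENCODE M21, genome build GRCm38, the same build as mm10). Of these 94 genes, 90 had reads in at least 1 sample, and 72 passed the filter on low values, which asked for at least 0.5 RPKM in at least 2 samples. RPKM divides the reads of a gene by its exon length and by the depth of the library, so genes can be ranked by level. It does not correct for differences in composition between libraries, so small differences between samples depend on the scaling.

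The samples were hippocampi of male C57BL/6 mice, 2 wild-type (WT) and 2 Lsd1 knock-in (KI). The KI mice are Lsd1 SA/SA: the serine of the histone demethylase LSD1 that protein kinase C alpha (PKCα) phosphorylates is replaced by alanine on both alleles, and WT littermates served as controls. Neither group received a treatment or carried another allele as far as the labels say. The stated age of 8 to 15 weeks belongs to the mice of the behavioural experiments, and whether each library held 1 animal was not stated, so the p-values measure only the spread between these samples. Poly(A) RNA was sequenced, and the comparison asks which genes differ in the hippocampus when LSD1 cannot be phosphorylated at this site.

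Potassium channels let potassium cross the membrane along its electrochemical gradient. In neurons the outward flow sets the resting potential, ends the action potential, limits repetitive firing and curtails transmitter release at the terminal. In glia, channels that let potassium in help to clear it from the extracellular space. The pore-forming subunits fall into voltage-gated (Kv), calcium- or sodium-activated, inwardly rectifying (Kir) and tandem-pore (K2P) families. Auxiliary subunits bind the Kv and calcium-activated pores and change their trafficking and kinetics, and so-called silent Kv subunits conduct only when assembled with Kv2 partners.

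The libraries held 13414957 and 8827967 mapped reads in WT replicates 1 and 2 and 14381252 and 14949756 in KI replicates 1 and 2, as worked out from the steps of the RPKM values. A tested member rested on a median of 432.5, 284, 445 and 449.5 reads in the same order. Kdm1a, the gene that encodes LSD1, stood at 11.6 and 11.2 RPKM in WT and 10.97 and 11.2 RPKM in KI, a level that does not check the point mutation. KI replicate 1 stood apart in its choroid plexus markers, whose summed level was 60.5 RPKM against 14.2 to 19.8 RPKM in the other samples. The 5 markers of dentate gyrus granule cells summed to 95.6 and 94.8 RPKM in WT and to 62.9 and 79.3 RPKM in KI. All 5 were lower in KI by the group means, and 4 of them did not overlap between the groups. Neocortical markers summed to 28.7 and 30.5 RPKM in WT and 36.7 and 35.0 RPKM in KI, and striatal markers to 39.7 and 37.3 against 45.5 and 42.6 RPKM. Their part in the channel values below was not tested. In bulk tissue, fewer cells of a type and less RNA per cell cannot be told apart.

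The members covered a wide range of levels in the hippocampus, and 72 of the 94 passed the filter. Of the 94 members, 8 had a mean of at least 30 RPKM, 22 lay between 10 and 30 RPKM, 34 between 1 and 10 RPKM and 26 under 1 RPKM, with 4 not listed. The 10 most abundant members held 49.9% of the RPKM summed over the family. Kcnab2, a cytoplasmic beta subunit of Kv1 channels, led at 124 and 129.5 RPKM in WT and 143 and 131 RPKM in KI. This was well above Kcnip2, a calcium-binding partner of Kv4 channels, with 48.6 and 46.4 RPKM in WT and 49.5 and 50.7 RPKM in KI.

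The pore subunits at the top of the order came from several families. They included the Kir genes Kcnj3 and Kcnj9, which form G protein-gated channels, and Kcnj10, the main inward rectifier of astrocytes, at means of 40.8, 33.2 and 40.5 RPKM over all samples. Kcnk1 of the K2P family (33.2 RPKM), Kcna1 of Kv1 (28.6 RPKM) and Kcnd2, the principal subunit of the dendritic A-type current (28.2 RPKM), were also among the 10.

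**Figure D1:**
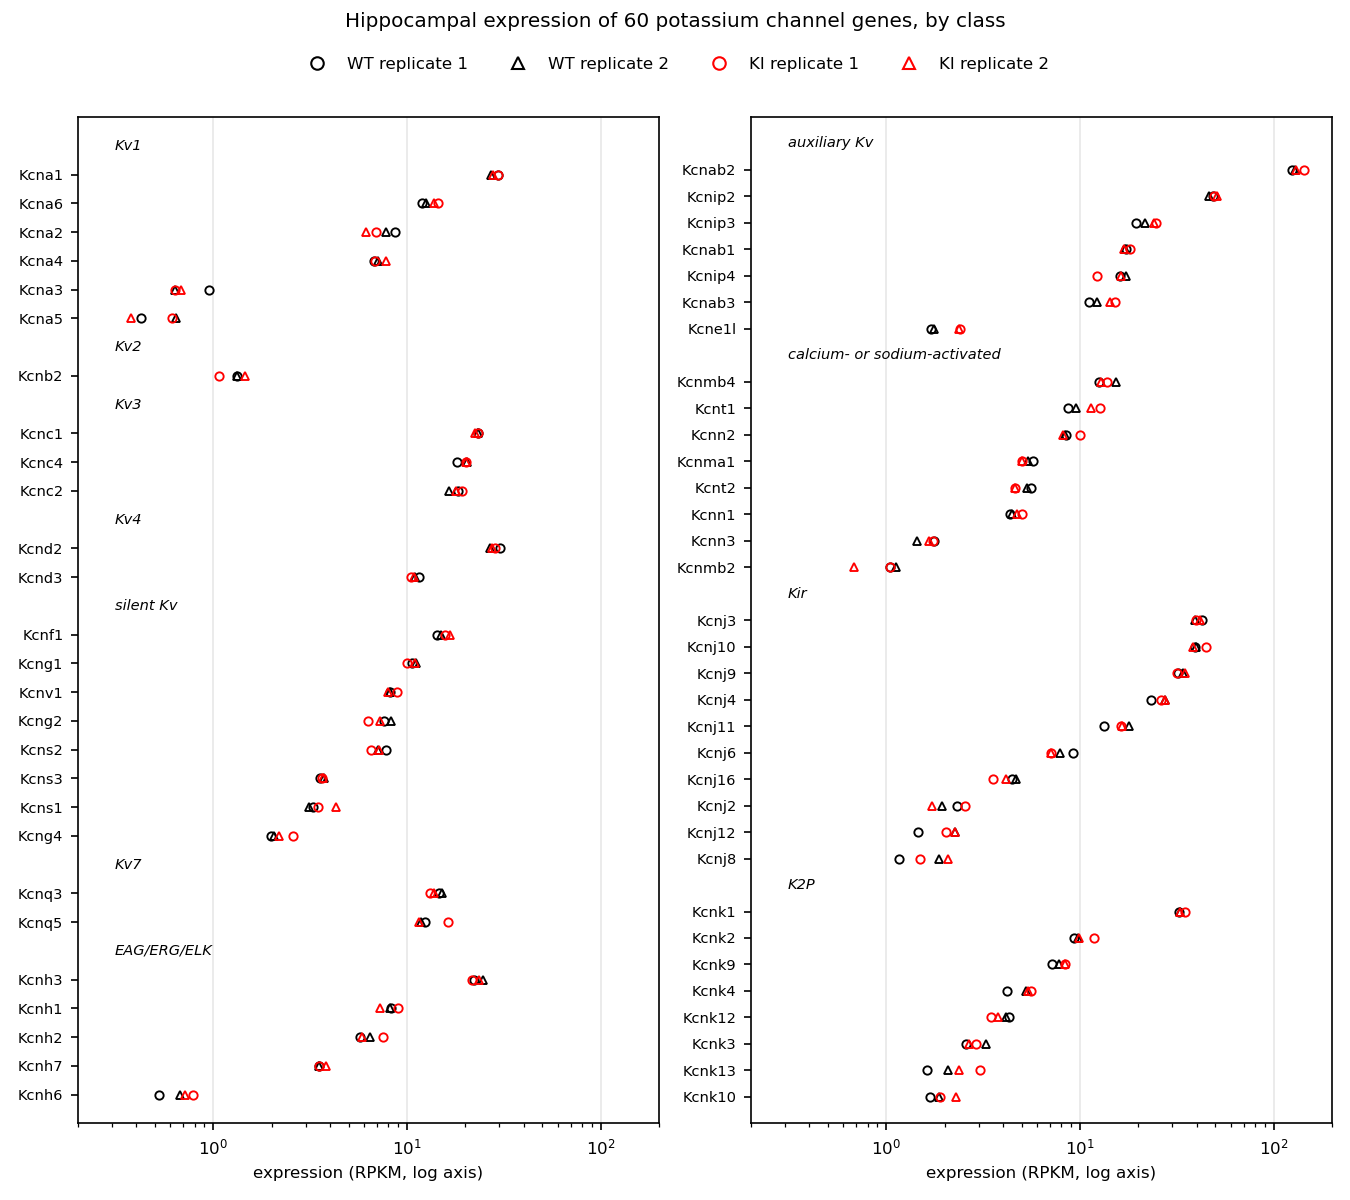
Expression of 60 of the 72 tested potassium channel genes in each sample, grouped by class; the x axis gives RPKM on a log axis, circles and triangles mark replicates 1 and 2, black is WT and red is Lsd1 KI. The 4 samples of most abundant genes sit close together, Kcnab2 stands alone at 124 to 143 RPKM, and single samples stand apart for a few genes, among them Kcnq5 in KI replicate 1.

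At the other end, Kcne1, Kcnj1, Kcnk16 and Kcnmb3 were not listed in any sample. A count of 0 reads allowed, by the limit of 3 reads, up to 0.0602 to 0.198 RPKM for these genes, depending on gene and sample, and this limit covers counting error only. Another 18 members were listed but stayed below the filter, with means of 0.00767 to 0.373 RPKM. They include Kcnj15, Kcna7, Kcna10, Kcnk18 and Kcnv2, and also Kcnq1, the Kv7 subunit of heart and inner ear, at 0.320 and 0.374 RPKM in WT and 0.230 and 0.243 RPKM in KI. In 5 of the 18 the KI samples both exceeded the WT samples, and in 3 they both fell short of them, near the 24.0% and 18.1% of all tested genes. In Kcna7 and Kcnj15 this rested on 0 reads in both WT samples and 1 or 2 reads in each KI sample.

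As a whole the family held a similar share of the RNA in all samples. The members summed to 927 and 950 RPKM in WT and 980 and 952 RPKM in KI, which was 0.265%, 0.273%, 0.278% and 0.268% of all RPKM. The auxiliary Kv subunits held the largest share of the family sum, 26.2% and 26.4% in WT and 27.5% and 27.3% in KI. Kir channels followed with 18.0% to 18.7% and Kv3 channels with 10.8% to 11.4%.

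The main comparison of KI with WT called no potassium channel gene. The study's own lists of changed genes, from an edgeR test of these samples, hold Kcnt1, Kcnab3 and Kcna2. The paper's methods state a minimum of 1.5-fold at a false discovery rate of 0.1. The ratios of the group means (KI over WT) of Kcnt1, Kcnab3 and Kcna2 here were 1.32, 1.26 and 0.788. In the limma fit on log2(RPKM + 1) over all 18436 genes past the filter, 0 of 72 members passed, as did 0 of 18436 genes (0.0%), at an adjusted p under 0.1 and a minimum of 1.2-fold. Without the mean-variance trend of the fit, 20 genes (0.108%) and 0 members passed. The smallest adjusted p was 0.399 among the members and 0.197 among all genes. At an unadjusted p under 0.05 there were 9 members, 12.5% of those tested, beside 9.62% of all genes. In these 9, 6 were higher in KI, against a background of 6.3%, and 3 were lower, against 3.33%, so the share of members was near that of all genes. The number of such members was 3 without WT replicate 1 and 2 without KI replicate 1. With 2 samples in each group an exact permutation test cannot give a p below 0.333, so the gene-level values below rest on the model across all genes.

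Differences were mostly small. The log2 fold change ranged from -0.30 to 0.38, and 5 members (6.94%) differed by at least 1.2-fold on this scale, beside 13.1% of all genes. The log2(RPKM + 1) scale understates the difference of genes with low RPKM. The median over the members was 0.05, with 44 above 0 and 28 below, beside 0.01 over all genes. It was 0.016 without KI replicate 1 and 0.033 without WT replicate 1. In 20 members the KI samples both exceeded the WT samples and in 14 they were both lower, 27.8% and 19.4% of those tested, beside 24.0% and 18.1% of all genes. Together these 34 members were 47.2% of those tested, against 42.2% of all genes.

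**Figure D2:**
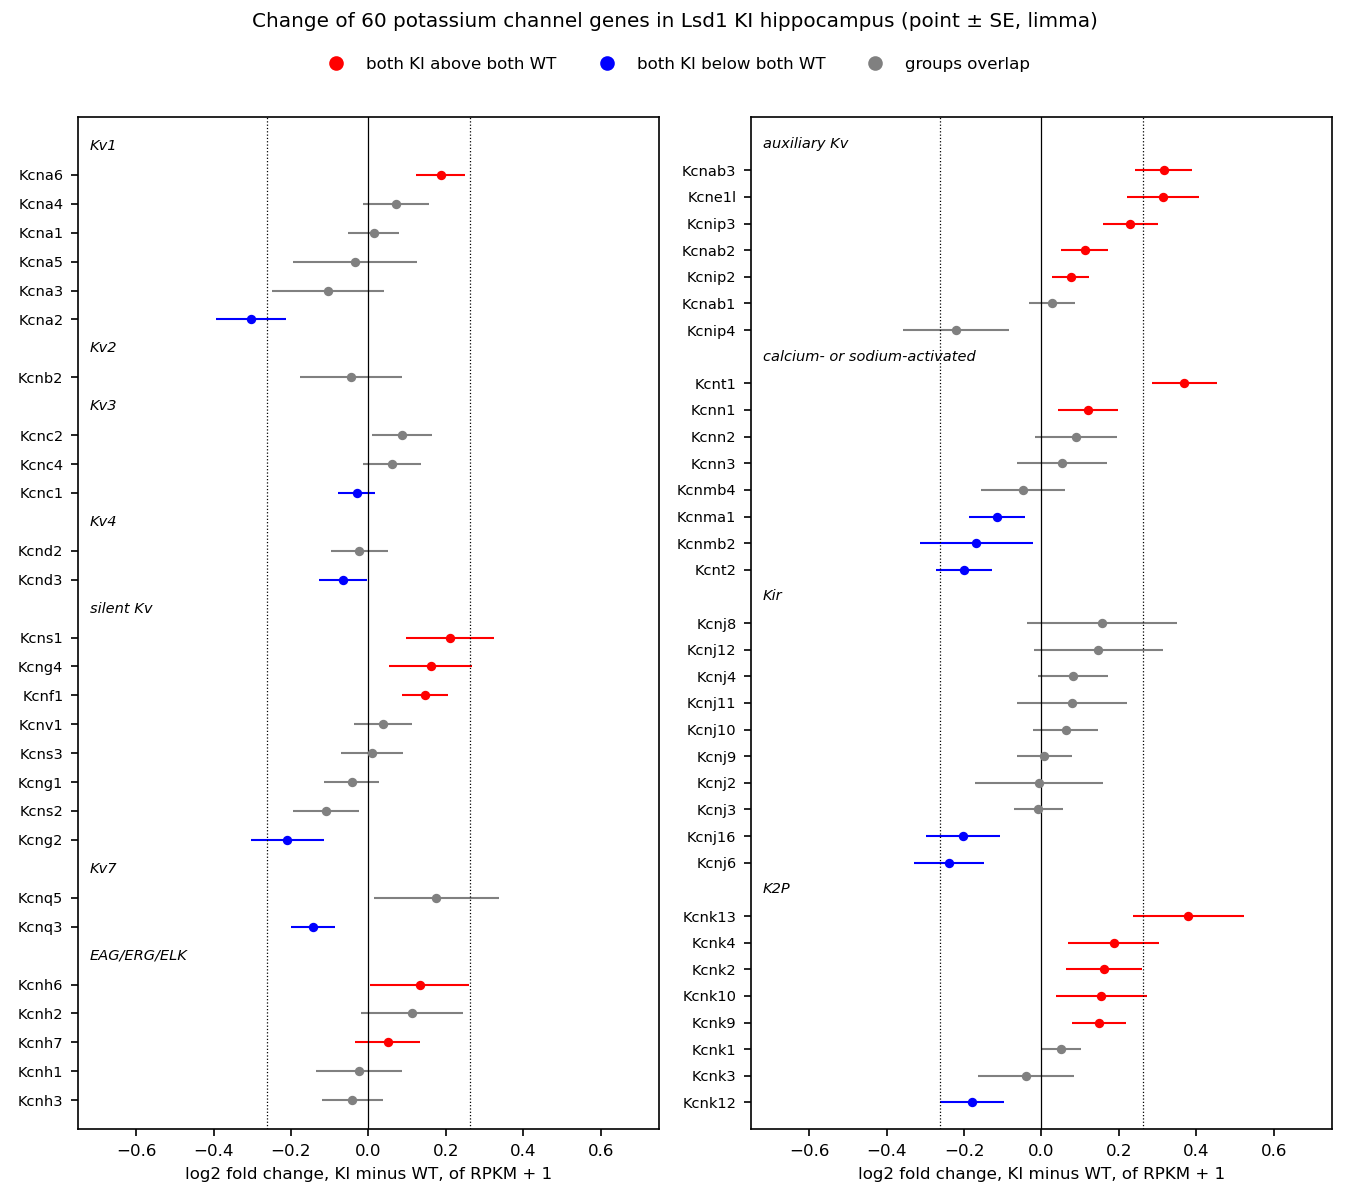
Log2 fold change (KI minus WT) of RPKM + 1 for 60 of the 72 tested members by class, with the standard error of the limma fit; red marks genes whose KI samples both exceeded the WT samples, blue those whose KI samples were both lower, and grey overlapping groups, and dotted lines mark 1.2-fold. Kcnt1, Kcnab3, Kcne1l and Kcnk13 lie beyond the upper line and Kcna2 beyond the lower one, and most genes lie near 0.

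A second fit, limma-voom on the whole reads behind the RPKM values, was added after the result above was known. It weighs each gene by its read depth and called 277 genes (1.5%), 210 higher (1.14%) and 67 lower (0.363%) in KI. It called 2 potassium channel genes, Kcnt1 and Kcnab3, both higher in KI. At an unadjusted p under 0.05 this fit had 14 members, 19.4% of those tested, beside 11.7% of all genes. Of these, 7 were higher (9.72%, beside 7.01% of all genes) and 7 lower (9.72%, beside 4.72%). These 2 genes were thus called by one fit and not by the other. The fits differ in input, scale and error model, and which of these accounts for the calls was not tested.

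Kcnt1 (chromosome 2, 25863734 to 25918273, + strand) encodes the sodium-activated channel Slack, which carries slow afterhyperpolarizing current after bursts. It had 8.64 and 9.59 RPKM in WT and 12.7 and 11.4 RPKM in KI, from 637 to 1372 reads per sample. The groups did not overlap, and their means were 9.11 ± 0.665 and 12.1 ± 0.869 RPKM (SD, n = 2 each), a ratio of 1.32. The log2 fold change was 0.37 (SE 0.084), with an adjusted p of 0.399 by limma, and stayed between 0.30 and 0.44 when each sample was left out. With limma-voom it was 0.41 (SE 0.074), with an adjusted p of 0.0117. Its paralog Kcnt2 (Slick; chromosome 1, 140246158 to 140612067, + strand) lay on the other side, with 5.57 and 5.31 RPKM in WT and 4.60 and 4.61 RPKM in KI. Its log2 fold change was -0.20 (SE 0.073; limma adjusted p 0.507). The ratio of Kcnt1 to Kcnt2 was 1.55 and 1.81 for WT and 2.76 and 2.48 for KI. Both genes were selected for a small p on these samples and differed in opposite directions. Their ratio therefore had to separate the groups and adds no support.

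Kcnab3 (chromosome 11, 69326258 to 69333042, + strand) encodes the least abundant of the Kv beta subunits in these samples. It had 11.1 and 12.3 RPKM in WT and 15.2 and 14.3 RPKM in KI. The KI values were higher throughout, with group means of 11.7 ± 0.857 and 14.8 ± 0.624 RPKM (SD, n = 2 each). The log2 fold change was 0.32 (SE 0.075), with an adjusted p of 0.408 by limma and of 0.0647 by limma-voom. An opposite-strand transcript, Kcnab3os, shares 147 bases or 5.13% of the exon length of Kcnab3, and it stood at 10.8 and 11.6 RPKM in WT and 14.5 and 15.2 RPKM in KI. The strand setting of the counting was not stated, so reads on the shared bases cannot be assigned to one of them. The part of Kcnab3os in the Kcnab3 values was not tested.

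**Figure D3:**
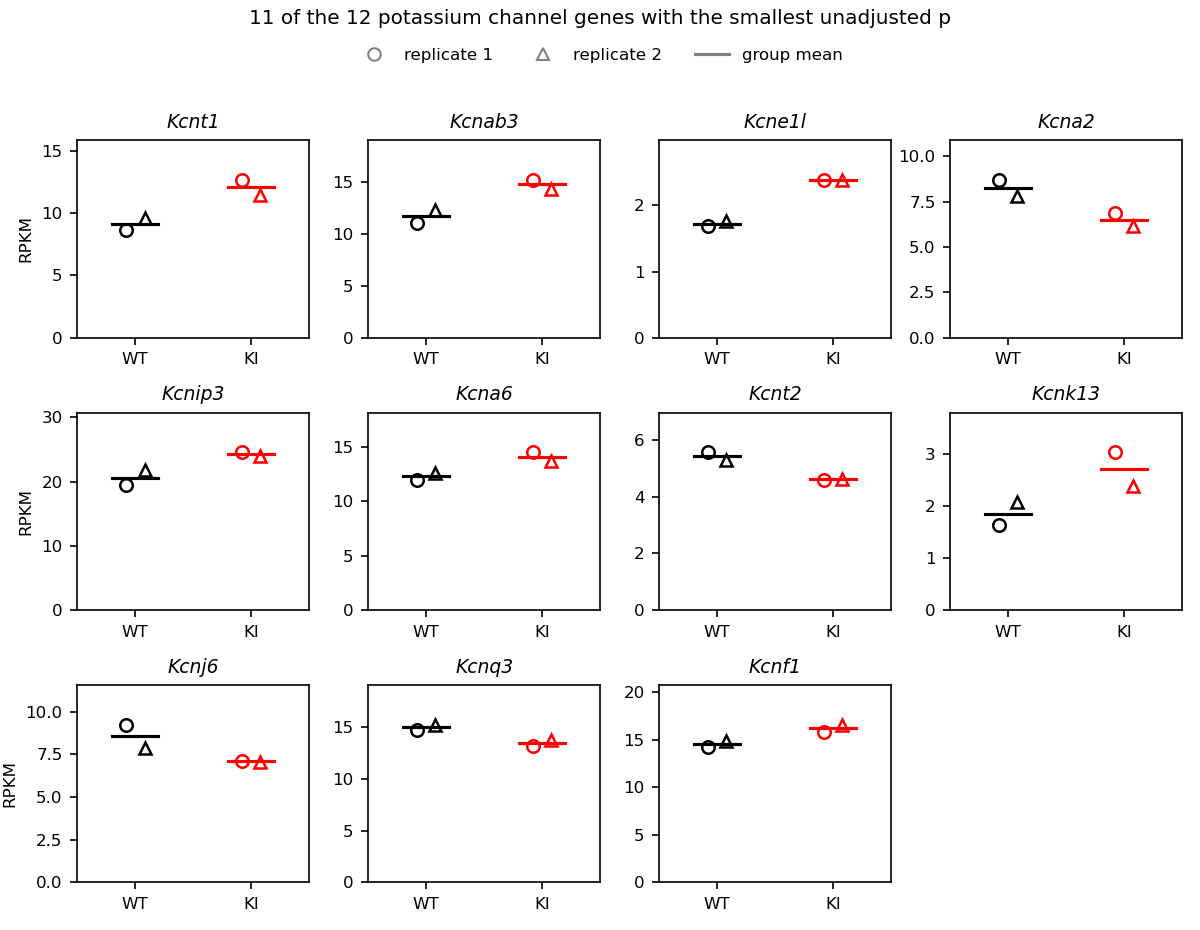
RPKM of 11 of the 12 members with the smallest unadjusted limma p in each sample, 1 panel per gene with the axis from 0; circles and triangles mark replicates 1 and 2, lines the group means, black WT and red Lsd1 KI. No panel shows overlapping groups, and the KI points are higher in Kcnt1, Kcnab3, Kcne1l, Kcnip3, Kcna6, Kcnk13 and Kcnf1 and lower in Kcna2, Kcnt2, Kcnj6 and Kcnq3. These members were selected for a small p on the same samples, so their separation adds no support.

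LSD1 acts on chromatin, including at gene promoters, and 2 promoter sequences are shown here. These genes, 1 on the higher and 1 on the lower side, had an unadjusted limma p under 0.05 but were not called by that fit. They were picked because each had a single listed start with no annotated exon in the 250 bases before it. LSD1 binding and DNA methylation at these promoters were not measured. The sequences are from RefSeq (GRCm38.p6), 5′ to 3′ on the strand of the gene, and capitals mark each CG dinucleotide, the site of cytosine methylation in mammals. The Kcnk13 window lies at chr12:99964249-99964498 (+ strand) and holds 8 CG, and the Kcnt2 window lies at chr1:140245468-140245717 (+ strand) and holds 10.
Kcnk13: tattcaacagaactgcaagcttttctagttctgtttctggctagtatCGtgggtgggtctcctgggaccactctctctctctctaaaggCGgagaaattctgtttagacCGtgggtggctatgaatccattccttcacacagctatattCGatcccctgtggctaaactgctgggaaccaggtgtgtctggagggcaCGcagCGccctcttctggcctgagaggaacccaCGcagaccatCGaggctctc
Kcnt2: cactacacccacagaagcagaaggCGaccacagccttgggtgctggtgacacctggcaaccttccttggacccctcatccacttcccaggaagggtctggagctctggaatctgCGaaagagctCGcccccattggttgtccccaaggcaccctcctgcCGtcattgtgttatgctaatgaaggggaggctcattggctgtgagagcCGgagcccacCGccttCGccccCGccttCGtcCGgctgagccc
The promoter table matched 69 of the 94 members with 94 starts. The median number of CG in these windows was 7, beside 6 over all 32851 promoters of the table, and 40.4% of them held at least 10 CG, beside 37.8% of all.

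Among the Kv1 genes, the axonal delayed rectifiers, Kcna6 and Kcna2 went opposite ways. Kcna2 (chromosome 3, 107101146 to 107115005, + strand), found with Kcna1 along axons and at terminals, had 8.71 and 7.83 RPKM in WT and 6.90 and 6.14 RPKM in KI. The groups did not overlap, and the log2 fold change was -0.30 (SE 0.091; limma adjusted p 0.478; limma-voom adjusted p 0.107). It stayed between -0.38 and -0.23 when each sample was left out. Kcna6 (chromosome 6, 126708329 to 126740674, - strand) had 11.9 and 12.6 RPKM in WT and 14.5 and 13.7 RPKM in KI. Its log2 fold change was 0.19 (SE 0.063; limma adjusted p 0.490). The ratio of Kcna6 to Kcna2 was 1.37 and 1.61 in WT and 2.10 and 2.23 in KI. These genes too were selected for a small p, so this ratio had to separate the groups. The transcript Gm26673, at 7.46, 7.88, 8.998 and 7.96 RPKM, lies on the opposite strand over 39.6% of the Kcna6 exon length, and reads there cannot be told apart. Kcna1, the most abundant of the class, had 29.7 and 27.2 RPKM in WT and 29.6 and 27.8 RPKM in KI, with a log2 fold change of 0.01 (SE 0.066) that turned to -0.0011 under median-of-ratios scaling. Kcna4, an A-type subunit of axons, overlapped between the groups at 6.77, 7.05, 6.83 and 7.81 RPKM, as did Kcna3 and Kcna5, which stayed under 1 RPKM.

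Kcnb2, a Kv2 delayed rectifier, was low, at 1.33 RPKM in both WT samples and 1.07 and 1.47 RPKM in KI. Of the 8 tested silent subunits, which modify Kv2 channels, 3 were above WT in both KI samples and 1 was below, beside 24.0% and 18.1% of all genes. None had an unadjusted limma p under 0.05, and their median log2 fold change was 0.02. Kcnf1 led them with 14.2 and 14.9 RPKM in WT and 15.8 and 16.6 RPKM in KI (log2 fold change 0.15, SE 0.060; limma adjusted p 0.532). Kcng4 and Kcns1 were the others above and Kcng2 the one below, at 7.61 and 8.30 RPKM in WT and 6.26 and 7.25 RPKM in KI. Kcng1, Kcnv1, Kcns2 and Kcns3 overlapped, with means of 10.6, 8.31, 7.13 and 3.66 RPKM over all samples.

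Of the Kv3 genes, which serve fast-spiking neurons, Kcnc1, Kcnc2 and Kcnc4 differed little. Kcnc2 had a log2 fold change of 0.09 (SE 0.077) and Kcnc1 one of -0.03 (SE 0.048). Kcnc4, which adds inactivation to these channels, overlapped at 18.1, 20.5, 20.1 and 20.1 RPKM, and Kcnc2 at 18.4, 16.5, 19.3 and 17.9 RPKM. Kcnc1 stood at 23.4 RPKM in both WT samples and 23.2 and 22.5 RPKM in KI, while Pvalb, a marker of fast-spiking interneurons, stood at 15.5 and 16.0 RPKM in WT and 21.2 and 19.1 RPKM in KI. The Kcnc1 difference was smaller than its SE, and the part of these interneurons in the Kv3 values was not tested. Over the 7 interneuron markers the summed level was 355, 362, 359 and 339 RPKM, and 3 were above and 1 below WT in both KI samples. Pvalb, Slc32a1 and Vip were the 3 above. Sst was the 1 below and made up most of the sum, at 243, 254, 233 and 226 RPKM.

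In the Kv4 class and its partners, the pore gene Kcnd2 overlapped between the groups (30.2 and 26.8 RPKM in WT, 28.5 and 27.5 RPKM in KI), with a log2 fold change of -0.02 (SE 0.074). Kcnd3 was lower in both KI samples by a small margin, at 11.5 and 10.96 RPKM in WT and 10.5 and 10.9 RPKM in KI. The interacting protein Kcnip3, also known as DREAM and calsenilin, had 19.4 and 21.8 RPKM in WT and 24.6 and 24.0 RPKM in KI. Its log2 fold change was 0.23 (SE 0.071; limma adjusted p 0.486), and 0.15 without WT replicate 1. Kcnip2 was also above WT in both KI samples, with a log2 fold change of 0.08 (SE 0.049; limma adjusted p 0.663). Kcnip4 ran the other way through 1 sample: KI replicate 1 had 12.3 RPKM, against 16.1 and 17.2 RPKM in WT and 16.2 RPKM in KI replicate 2. In the same sample the CA pyramidal cell markers summed to 104 RPKM, against 116, 117 and 133 RPKM. Most of that gap lay in 1 of the 5 markers, Wfs1, at 28.6 RPKM in KI replicate 1 against 42.2 and 41.2 RPKM in WT and 50.9 RPKM in KI replicate 2. The part of these cells in the Kcnip4 value was not tested.

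Of the other auxiliary subunits, Kcne1l, the single-span subunit also called Kcne5, was low, and its groups did not overlap. It had 1.69 and 1.76 RPKM in WT and 2.39 and 2.38 RPKM in KI, from 35, 24, 53 and 55 reads. The log2 fold change was 0.31 (SE 0.093; limma adjusted p 0.476), and with limma-voom the adjusted p was 0.477. Kcnab2 was above WT in both KI samples with a log2 fold change of 0.11 (SE 0.062; limma adjusted p 0.612), which was 0.050 without KI replicate 1 and 0.17 without KI replicate 2, and Kcnab1 overlapped. In all, 5 of the 9 tested auxiliary genes were above WT in both KI samples and 0 below, beside 24.0% and 18.1% of all genes. Their median log2 fold change was 0.11, beside 0.01 over all genes. Of the 9, 3 had an unadjusted limma p under 0.05, all higher in KI, beside 6.3% of all genes.

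Among the Kv7 genes, which form the M-current that restrains repetitive firing, Kcnq3 was below WT in both KI samples, at 14.7 and 15.2 RPKM in WT and 13.2 and 13.7 RPKM in KI. The log2 fold change of Kcnq3 was -0.14 (SE 0.057; limma adjusted p 0.522). Kcnq5 rested on 1 sample: KI replicate 1 had 16.3 RPKM, against 12.3 and 11.7 RPKM in WT and 11.6 RPKM in KI replicate 2. Kcnab2 lies on chromosome 4, as Kdm1a does, 15.8 Mb from it.

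The ether-a-go-go class (EAG, ERG and ELK channels) overlapped in 5 of its 7 tested members, while 42.2% of all genes did not overlap. Kcnh3, an ELK channel of forebrain neurons and the most abundant of them, had 22.1 and 24.6 RPKM in WT and 21.6 and 23.7 RPKM in KI. Kcnh2, the ERG channel, stood at 5.74 and 6.41 RPKM in WT and 7.52 and 5.84 RPKM in KI, with KI replicate 1 the highest. Kcnh1, the EAG channel, overlapped at 8.26, 8.20, 9.01 and 7.22 RPKM. Kcnh7 and Kcnh6, further ERG channels, were the 2 above WT in both KI samples, by small margins: Kcnh7 had at most 3.52 RPKM in WT and 3.53 and 3.81 RPKM in KI, and Kcnh6 had 0.525 and 0.670 RPKM in WT and 0.784 and 0.716 RPKM in KI. The class had a median log2 fold change of 0.08.

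Besides Kcnt1 and Kcnt2, the calcium- and sodium-activated class held Kcnma1, the pore of the BK channel that brakes transmitter release. It had 5.69 and 5.37 RPKM in WT and 5.02 and 5.04 RPKM in KI, a log2 fold change of -0.11 (SE 0.073; limma adjusted p 0.657). Its neuronal beta subunit Kcnmb4 overlapped, with 12.5 and 15.3 RPKM in WT and 13.8 and 12.9 RPKM in KI, and transcripts on the opposite strand cover 10.7% and 20.8% of its exon length. Kcnmb2 was lower in both KI samples by a margin set by 1 of them: 1.05 and 1.12 RPKM in WT and 1.04 and 0.684 RPKM in KI. The small-conductance (SK) genes, which shape the medium afterhyperpolarization, were led by Kcnn2 with 8.45 and 8.39 RPKM in WT and 9.99 and 8.14 RPKM in KI. Kcnn1 was above WT in both KI samples, at 4.34 and 4.44 RPKM in WT and 5.03 and 4.70 RPKM in KI (log2 fold change 0.12, SE 0.077; limma adjusted p 0.658). Kcnn3 overlapped at 1.77, 1.43, 1.74 and 1.65 RPKM, and Kcnn4, the intermediate-conductance channel of blood cells, stayed below the filter at 0.0557 to 0.137 RPKM.

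Of the 11 tested Kir genes, 0 were above WT in both KI samples and 2 were below, beside 24.0% and 18.1% of all genes. Kcnj6, the GIRK2 subunit that couples GABA-B receptors to postsynaptic inhibition, had 9.24 and 7.88 RPKM in WT and 7.11 and 7.05 RPKM in KI. Its log2 fold change was -0.24 (SE 0.091; limma adjusted p 0.516; limma-voom adjusted p 0.130) and lay between -0.34 and -0.14 when each sample was left out. The other GIRK genes did not share it: Kcnj3 had 42.8 and 39.1 RPKM in WT and 39.9 and 41.4 RPKM in KI, and Kcnj9 had 32.1 and 34.1 RPKM in WT and 31.6 and 35.0 RPKM in KI. Their log2 fold changes were -0.01 (SE 0.062) and 0.01 (SE 0.070), and the sign of each turned when single samples were left out. Kcnj4, a strong inward rectifier of forebrain neurons, overlapped at 23.4, 27.5, 26.2 and 27.5 RPKM, as did its relatives Kcnj2 and Kcnj12, with means of 2.13 and 2.00 RPKM over all samples. Kcnj3 shares 31.1% of its exon length with the opposite-strand transcript Gm26794.

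The glial and vascular members were read beside the markers of those cells. Kcnj16, which partners Kcnj10 in astrocytes, was the other Kir gene below WT, with 4.43 and 4.69 RPKM in WT and 3.55 and 4.13 RPKM in KI (log2 fold change -0.20, SE 0.096; limma adjusted p 0.567). When each sample was left out it lay between -0.29 and -0.12. Kcnj10 itself had 39.4 and 39.7 RPKM in WT and 44.7 and 38.3 RPKM in KI. The 5 astrocyte markers summed to 254, 256, 252 and 260 RPKM, and 2 of them were above and 1 was below WT in both KI samples. Kcnj8, the KATP pore of pericytes, overlapped at 1.16, 1.86, 1.49 and 2.08 RPKM, while endothelial and pericyte markers summed to 58.9, 62.6, 62.7 and 63.7 RPKM. Kcnj13, a choroid plexus channel, was below the filter, with 0.493 RPKM in KI replicate 1 and 0 to 0.176 RPKM in the other samples. Ttr, the leading choroid plexus marker, stood at 51.3 RPKM in KI replicate 1 and at 8.13 to 13.8 RPKM in the others. Kcnj13 shares 49.1% of its exon length with Gigyf2 on the opposite strand.

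The K2P channels, which carry background current, had 5 of 9 tested genes above WT in both KI samples and 1 below, beside 24.0% and 18.1% of all genes. Their median log2 fold change was 0.15. Of the 9, 1 had an unadjusted limma p under 0.05, higher in KI, beside 6.3% of all genes. Kcnk13 (THIK-1), a channel of microglia, had the widest difference of the family on the log scale. It had 1.63 and 2.07 RPKM in WT and 3.04 and 2.39 RPKM in KI, from 68, 57, 136 and 111 reads, and group means of 1.85 ± 0.315 and 2.71 ± 0.462 RPKM (SD, n = 2 each). The log2 fold change was 0.38 (SE 0.144; limma adjusted p 0.516; limma-voom adjusted p 0.187). It was 0.25 without KI replicate 1 and 0.51 without KI replicate 2. The 5 microglial markers summed to 96.0 and 93.7 RPKM in WT and 102 and 93.4 RPKM in KI. Of the 5, 2 were above WT in both KI samples and 1 was below. Tmem119 was above with 5.51 and 5.53 against 6.61 and 7.43 RPKM, and Csf1r with 19.2 and 18.5 against 20.2 and 20.1 RPKM. P2ry12 was below, with 16.1 and 16.8 against 15.5 and 11.4 RPKM. The part of these cells in the Kcnk13 values was not tested.

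The other K2P genes differed by less. Kcnk2 (TREK-1), a mechano- and lipid-sensitive channel, had 9.31 and 9.80 RPKM in WT and 11.8 and 9.89 RPKM in KI, with KI replicate 1 apart from the rest. Kcnk9 (TASK-3) had 7.15 and 7.78 RPKM in WT and 8.34 and 8.41 RPKM in KI (log2 fold change 0.15, SE 0.070; limma adjusted p 0.567; 0.095 to 0.20 when each sample was left out). Kcnk4 had 4.17 and 5.28 RPKM in WT and 5.60 and 5.38 RPKM in KI, and shares 13.1% of its exon length with Catsperz on the same strand. Kcnk12 was the gene below, at 4.31 and 4.15 RPKM in WT and 3.48 and 3.77 RPKM in KI. Kcnk10, a relative of Kcnk2, had 1.68 and 1.88 RPKM in WT and 1.89 and 2.30 RPKM in KI, a small gap between the groups, and Kcnk3 (TASK-1) overlapped at 2.56, 3.27, 2.92 and 2.67 RPKM. Kcnk1, by far the most abundant, overlapped at 32.3, 32.9, 34.8 and 32.8 RPKM.

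**Figure D4:**
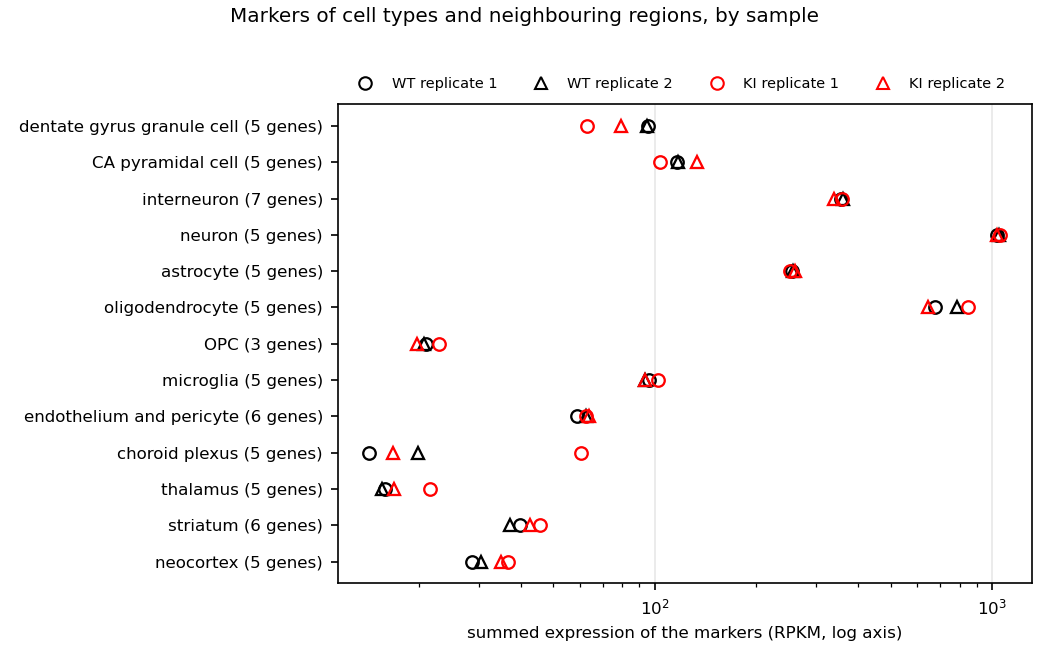
Summed RPKM of marker lists for cell types and neighbouring regions in each sample, on a log axis; circles and triangles mark replicates 1 and 2, black WT and red Lsd1 KI. Dentate granule cell markers lie at 95.6 and 94.8 RPKM in WT and 62.9 and 79.3 RPKM in KI, and choroid plexus markers reach 60.5 RPKM in KI replicate 1.

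Other genes of potassium handling were read from 4 lists: partners of Kv and BK channels, partners of KATP and GIRK channels, HCN channels, and potassium pumps and transporters. Of 33 genes, 31 were tested and 0 were called by limma. At an unadjusted limma p under 0.05, 2 were higher and 1 was lower in KI, beside 6.3% and 3.33% of all genes. The limma-voom fit called 1, beside 1.5% of all genes. Both KI samples were above WT in 3 of the 31 and below in 10, beside 24.0% and 18.1% of all genes, and the median log2 fold change was -0.01. Dpp10, an auxiliary peptidase-like subunit of Kv4 channels, was the gene that limma-voom called. It had 8.52 and 8.21 RPKM in WT and 10.9 and 11.9 RPKM in KI, with a log2 fold change of 0.40 (SE 0.070; limma adjusted p 0.318; limma-voom adjusted p 0.0117). Its relative Dpp6 had 50.9 and 49.7 RPKM in WT and 48.4 and 49.6 RPKM in KI.

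Among the partners of KATP and GIRK channels the smallest p belonged to a gene that was lower in KI. Abcc8, the sulfonylurea receptor of KATP channels, had 11.8 and 13.4 RPKM in WT and 10.2 and 11.1 RPKM in KI (log2 fold change -0.22, SE 0.088; limma adjusted p 0.522), and its pore partner Kcnj11 overlapped, at 13.3, 18.0, 16.4 and 16.5 RPKM.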

How the data were processed

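RNA-seq of hippocampal poly(A) RNA was analysed in 2 WT and 2 KI samples, grouped by GEO's labels. Per the paper's methods and the submitters' processing notes, the authors aligned read pairs with GSNAP to mm10, kept uniquely and properly mapped pairs and tested genes with edgeR. The files the authors deposited hold RPKM per gene of Ensembl release 74, one file per sample. An unlisted gene was given 0. The members, gene lists and tests were chosen with earlier results of these data known.

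Since the values are RPKM, limma (3.58.1, R 4.3.3) was run on log2(RPKM + 1) with a mean-variance trend over the 18436 genes that reached 0.5 RPKM in 2 or more samples, with Benjamini-Hochberg adjustment. Calls needed an adjusted p under 0.1 and 1.2-fold. The RPKM steps gave whole reads for 100.0% of 26328 genes (tolerance 1e-06 reads), which were used for limma-voom. Reads on genes were 99.3% of the mapped reads. The scripts were checked on simulated data.

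Full values were given for the 12 tested members with the smallest unadjusted p, the 8 with the largest change, the 10 most abundant, the most abundant of each class, and Kcnab3, Kcnt1 and Kcna2, which the study's lists (chosen on these samples) hold. Some items these rules select are not reported here. A few other members were given with their values. The ratios of Kcnt1 to Kcnt2 and of Kcna6 to Kcna2 were not among the planned results. Dpp10 and Abcc8 were named for the smallest p of their lists. Dpp6, Kcnab3os and other overlapping transcripts, Pvalb, Slc32a1, Vip, Sst, Wfs1, Tmem119, Csf1r, P2ry12 and Ttr were named after their values were seen. Positions and exon overlaps come from GENCODE M21, whose exon length equalled that behind the values for 15467 of 25729 annotated genes. Alternatives were another pseudocount, other filters and thresholds, no trend, quantile and median-of-ratios scaling, a replicate block and leaving out each sample.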

Additional observations from a re-analysis of the deposited data

How the results depend on the processing

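No potassium channel gene was called under any alternative of the RPKM fit. Calls came with limma-voom on whole reads, added after the data were seen: 2 members, 277 of all genes and 1 partner gene (Dpp10). Without the mean-variance trend, 20 genes and 0 members were called. The cause of these differences was not tested. The members with an unadjusted p under 0.05 numbered 9, 14 with limma-voom, and 2 to 7 when each sample was left out. Members whose groups did not overlap numbered 34, and 50 to 55 when each sample was left out, since 3 samples separate more easily. The median log2 fold change of 0.05 was 0.023 after quantile normalization and 0.016 to 0.060 when each sample was left out.

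Of the 25 members these rules select, 18 kept their sign under every alternative. The sign of Kcna1 (-0.0011) and Kcnj9 (-0.0071) turned under median-of-ratios scaling. When each sample was left out, the log2 fold change ranged from -0.045 to 0.17 for Kcnj10, -0.12 to 0.031 for Kcnh3, -0.18 to 0.087 for Kcnmb4, -0.11 to 0.060 for Kcnd2, -0.045 to 0.073 for Kcna1, -0.071 to 0.055 for Kcnj3 and -0.063 to 0.079 for Kcnj9.

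Deviations from the group means of same-numbered samples had a Pearson r of -0.0249 across 18436 genes. With 2 samples in each group this value cannot show whether the replicate numbers pair the samples. With a replicate block, 5 members had an unadjusted p under 0.05 in the RPKM fit and 0 were called. With limma-voom and a replicate block, 5 members, 445 genes and 1 partner gene were called, and 15 members had an unadjusted p under 0.05. The members called were Kcnt1, Kcnab3 and Kcnk13, higher in KI, and Kcna2 and Kcnj6, lower in KI.

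Depth limits low members: the median tested member had 284 reads in WT replicate 2, the shallowest sample, and Kcne1l had 24 there.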
